A study of Mus musculus with 8 samples.

Results

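The genes described here encode the cornified envelope and other products of terminal keratinocyte differentiation. They are 38 mouse genes, taken by symbol from a written list and found by Ensembl identifier among the 55335 identifiers of each library. They comprise 19 envelope proteins, 3 crosslinking enzymes, 2 proteases with 1 protease inhibitor, 3 genes of the lipid barrier, and 10 secreted, surface and calcium-binding proteins. RNA of sorted mouse prostate epithelium was sequenced in 8 libraries, 2 in each of 4 groups, and the sort kept cells positive for EpCAM and CD24A with low CD49F. All mice carried PtenPC-/- and this alone defined the PP genotype, whereas PPK mice carried Kmt2cPC-/- as well. PP sham and PPK sham mice were 3.5 months old, and PP ADT and PPK ADT mice were 6.5 months old. ADT commonly stands for androgen deprivation therapy, and each ADT difference is a difference of ADT together with age. The labels give neither the Cre driver nor the deleted exons, the way ADT was done, or the number of animals behind a library. No group has both intact genes, so nothing here is measured against normal prostate.

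In epidermis, a keratinocyte that leaves the basal layer builds a shell of crosslinked protein under its membrane. Involucrin, envoplakin and periplakin form its scaffold, loricrin and the small proline-rich (Sprr) proteins fill it, and transglutaminases weld these proteins together. Proteases then process filaggrin and loosen the cells, and lipids exported to the surface seal the barrier. Glandular prostate epithelium does not cornify, but squamous epithelia and squamous metaplasia use the same genes.

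The values are FPKM, fragment counts divided by gene length and library size, so levels of different genes can be compared per length. Summed FPKM ran from 284015 to 333977 per library, and the number of reads is unknown. The spacing of low values put the depth of 7 libraries at 0.702 to 0.824 of that of PP sham replicate A. Libraries of a group had correlations across genes of 0.986 to 0.988, and libraries of different groups 0.805 to 0.958. Kmt2c, the targeted gene, stood at 13.3 and 13.9 FPKM in PP sham, 8.67 and 8.15 in PPK sham, 10.3 and 9.33 in PP ADT, and 6.603 and 6.36 in PPK ADT. It was lower in PPK than in PP at both times and not absent. In bulk RNA, fewer cells of a type and less RNA per cell cannot be told apart. P-values measure only the spread between these libraries, since the labels do not say whether replicates A and B are separate animals. They came from limma on log2(FPKM + 1), two-sided, with Benjamini-Hochberg adjustment over 14000 genes, and a gene rose or fell where its adjusted p was under 0.05. A difference is given as log2 ± SE on that scale, which understates changes of low genes.

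The cornification genes were highest in PPK ADT for 29 of 38 members, in PP ADT for 4, in PP sham for 3 and in PPK sham for 2. The 29 include Lor, Flg2, Sprr4, Tgm3, Abca12 and Alox12b, which stayed under 1 FPKM in every library. The share of all genes was not counted for this or the next count. PPK ADT libraries also had the highest summed FPKM over all genes (329204 and 333977), so both counts are only a description. Members with a mean of at least 1 FPKM numbered 15 in PP sham, 15 in PPK sham, 19 in PP ADT and 28 in PPK ADT. Their summed level was 1168 and 1171 FPKM in PP sham, 905.1 and 896 in PPK sham, and 1114 and 1134 in PP ADT, against 3690.3 and 3750.2 in PPK ADT. The sum rested on few genes. Sprr1a made up 46.1 and 45.5% of it in PP sham but 14.1 and 14.5% in PPK ADT. Sfn made up 40.1 and 39.97% in PPK ADT, and Lgals7 went from 0.382 and 0.481% in PP sham to 14.9 and 14.6% in PPK ADT. The 38 members were thus mixed in PP sham, where 9 had means of at least 10 FPKM and 10 were at 0 in both libraries. Of the 38, 7 were at 0 in all 4 sham libraries. For these counts too, the share of all genes was not counted.

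**Figure D1:**
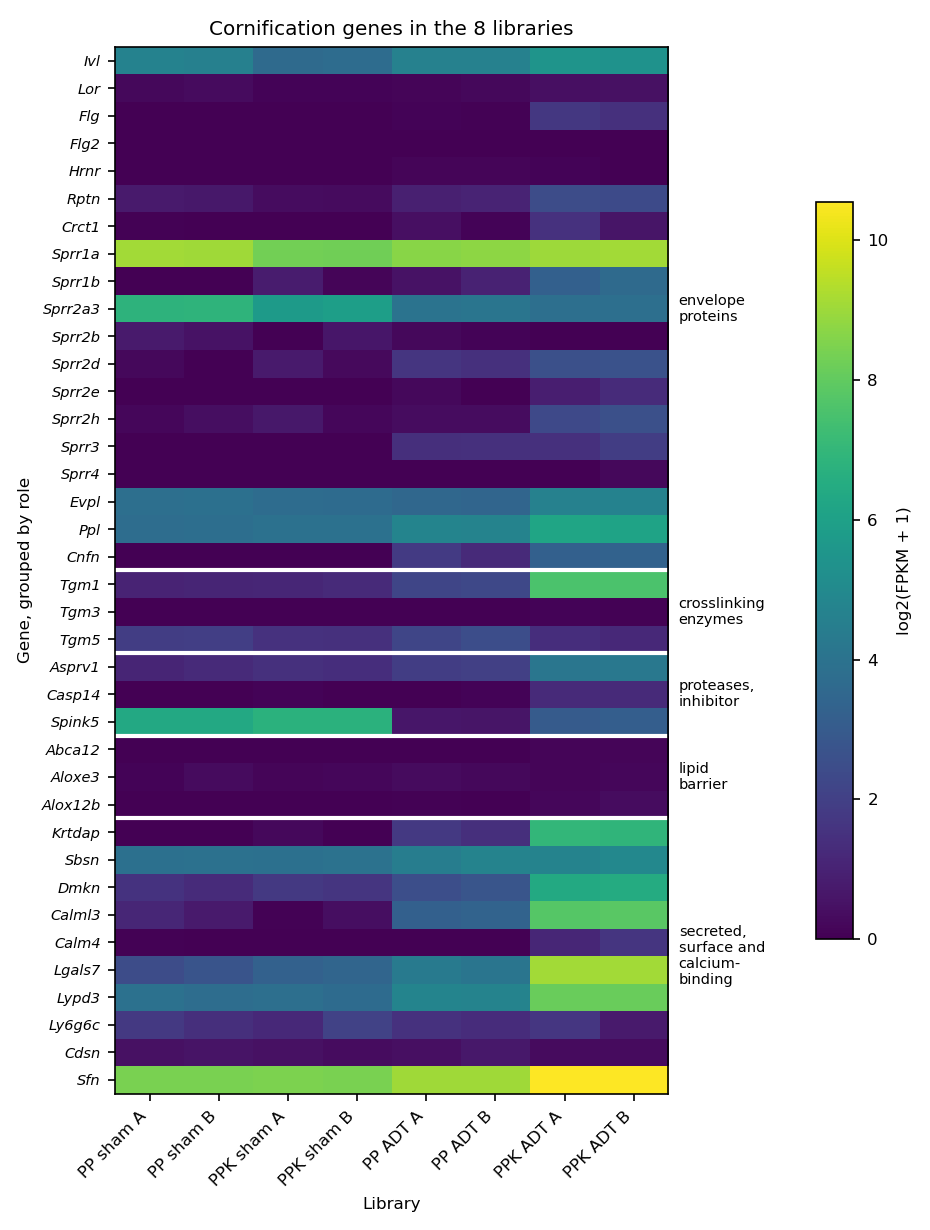
Heat map of log2(FPKM + 1) for the 38 members (rows, grouped by role) in the 8 libraries (columns). The PPK ADT columns are brightest for most rows, whereas Sprr2a3 and Spink5 are brighter in the sham columns and the 3 lipid barrier genes are dark throughout.

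Of the 38 members, 26 reached 1 FPKM in at least 2 libraries and were tested. Of these, 6 reached it only through the PPK ADT libraries (Flg, Rptn, Sprr1b, Sprr2h, Casp14 and Calm4) and so had to differ there. In PPK ADT against PP ADT, 21 of the 26 rose, 2 fell and 3 did not pass, where 32.5% of all genes tested rose and 27.1% fell. Their median log2 difference was 1.46, against 0.05 over all genes tested. Of the 20 that reached the filter without PPK ADT, 15 rose, 2 fell and 3 did not pass, where 29.6% of all genes that did so rose and 28.7% fell. The median of the 20 was 1.46, against 0.01 over those genes. These members were chosen with earlier results of these data known, so the counts are a description.

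Among envelope proteins, Ivl, which encodes the scaffold protein involucrin, was read in every library. It stood at 24.7 and 23.0 FPKM in PP sham, 11.5 and 12.4 in PPK sham, 24.2 and 23.6 in PP ADT, and 43.1 and 40.2 in PPK ADT. The PPK sham pair was lowest and the PPK ADT pair highest, and the PP pairs of both treatments overlapped. Ivl fell in PPK against PP in sham mice (-0.94 ± 0.058, limma adjusted p = 8.58e-05), whereas among ADT mice it rose (0.77 ± 0.058, limma adjusted p = 4.67e-05). The genotype effects thus had opposite signs, and their difference passed (1.71 ± 0.083, limma adjusted p = 8.72e-06).

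The plakins Evpl and Ppl, which tie the envelope to desmosomes, followed different courses outside PPK ADT. Evpl (envoplakin) stood at 13.3 and 13.9 FPKM in PP sham, 12.2 and 11.9 in PPK sham, 10.6 and 9.996 in PP ADT, and 24.1 and 24.3 in PPK ADT. Ppl (periplakin) stood at 12.6 and 13.1 FPKM in PP sham, 14.2 and 14.3 in PPK sham, 25.99 and 25.7 in PP ADT, and 71.9 and 69.3 in PPK ADT. In PP mice Evpl fell with ADT (-0.37 ± 0.048, limma adjusted p = 0.00112), whereas Ppl rose (0.96 ± 0.039, limma adjusted p = 5.61e-06). Both rose in PPK ADT against PP ADT, Evpl by 1.16 ± 0.048 (limma adjusted p = 2.99e-06) and Ppl by 1.42 ± 0.039 (limma adjusted p = 4.88e-07).

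Sprr proteins are short crosslinked bridges of the envelope, and their genes lie side by side on chromosome 3. Sprr1a was the highest of the 19 envelope members in every library. It stood at 538 and 533 FPKM in PP sham, 311 and 302 in PPK sham, 412 and 431 in PP ADT, and 519 and 545 in PPK ADT. The PPK ADT and PP sham pairs overlapped, so its level in PPK ADT was not above that of PP sham. Sprr1a fell in PPK sham (-0.80 ± 0.035, limma adjusted p = 2.19e-05) and rose in PPK ADT against PP ADT (0.34 ± 0.035, limma adjusted p = 0.000234). Its paralog Sprr1b read 0 in either PP sham library, and stood at 0.765 and 0.111 FPKM in PPK sham and 0.413 and 0.991 in PP ADT. In PPK ADT it stood at 8.35 and 11.6 FPKM, above all other libraries and far below Sprr1a.

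Sprr2 genes went in opposite directions. Sprr2a3 stood at 113 and 116 FPKM in PP sham, 52.6 and 58.9 in PPK sham, 15.2 and 16.3 in PP ADT, and 13.5 and 13.4 in PPK ADT. It fell with ADT in PP (-2.79 ± 0.062, limma adjusted p = 5.39e-07) and likewise in PPK mice (-1.97 ± 0.062, limma adjusted p = 6.74e-07). Between PPK ADT and PP ADT it differed by -0.21 ± 0.062 (limma adjusted p = 0.025), a call that ended without PP ADT replicate B (adjusted p = 0.124), without PPK ADT replicate A (0.0824) or without PPK ADT replicate B (0.0862). Sprr2a1 and Sprr2a2 are close copies outside the 38 members whose gene models overlap each other. How reads were assigned among the copies is not given in the sources used here, so each value is uncertain and a sum may count reads more than once. The sum of all 3 copies was 1269.6 and 1250.1 FPKM in PP sham, 641 and 663 in PPK sham, 189 and 229 in PP ADT, and 179.7 and 188 in PPK ADT, the same order of groups as Sprr2a3 alone.

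Sprr2h and Sprr2d, neighbours of Sprr2a3, were low in sham libraries. Sprr2h stood at 0.134 to 0.582 FPKM in the 6 libraries outside PPK ADT, and at 4.01 and 4.91 in PPK ADT. Sprr2d stood at 0 to 0.719 FPKM in sham libraries, 2.10 and 1.75 in PP ADT, and 4.99 and 5.29 in PPK ADT. Sprr2d rose in PPK ADT against PP ADT (1.07 ± 0.18, limma adjusted p = 0.00238). Sprr2h differed by 2.10 ± 0.18, with no test since it reached the filter only through PPK ADT. With a pseudocount of 0.1 the Sprr2d call ended (1.38, adjusted p = 0.0919). Sprr3 was listed at 0 in all 4 sham libraries, and its ADT levels of 1.65 and 1.80 FPKM in PP and 1.72 and 2.75 in PPK differed by 0.23 ± 0.15 (limma adjusted p = 0.235). That difference passed without PPK ADT replicate A (0.46, adjusted p = 0.0110), as did that of its difference of effects (adjusted p = 0.0288). Of the other Sprr members, Sprr2e reached 0.829 and 1.44 FPKM in PPK ADT, Sprr2b was at most 0.679 in any library and at 0 in PPK ADT, and Sprr4 was above 0 in 1 library.

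Promoter sequence is shown for Sprr paralogs that differed in level (Sprr1a and Sprr1b) or were both low (Sprr2d and Sprr2h), and for Rptn and Krtdap, which were highest in PPK ADT. Each is the 200 bases before the RefSeq start in GRCm38.p6, read 5′ to 3′ on the strand of the gene. Sprr1a is chr3:92485882-92486081 and Sprr1b chr3:92438780-92438979, both on the minus strand. Sprr2d is chr3:92338940-92339139, Sprr2h chr3:92385485-92385684, Rptn chr3:93393499-93393698 and Krtdap chr7:30787705-30787904, all on the plus strand. Capitals mark matches on either strand to the AP-1 motif TGANTCA and to the TATA box TATAAA.
Sprr1a: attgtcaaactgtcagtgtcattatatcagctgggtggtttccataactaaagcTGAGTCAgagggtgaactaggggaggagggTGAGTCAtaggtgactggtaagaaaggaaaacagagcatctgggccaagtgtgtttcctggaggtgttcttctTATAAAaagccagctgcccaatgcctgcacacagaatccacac
Sprr1b: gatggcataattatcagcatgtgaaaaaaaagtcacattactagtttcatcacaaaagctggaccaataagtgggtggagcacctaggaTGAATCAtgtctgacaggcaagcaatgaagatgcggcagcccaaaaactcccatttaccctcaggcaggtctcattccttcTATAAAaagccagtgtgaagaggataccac
Sprr2d: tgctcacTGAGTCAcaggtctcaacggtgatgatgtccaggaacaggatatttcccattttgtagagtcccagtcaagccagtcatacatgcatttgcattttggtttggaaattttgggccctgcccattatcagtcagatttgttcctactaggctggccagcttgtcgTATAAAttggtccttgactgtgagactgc
Sprr2h: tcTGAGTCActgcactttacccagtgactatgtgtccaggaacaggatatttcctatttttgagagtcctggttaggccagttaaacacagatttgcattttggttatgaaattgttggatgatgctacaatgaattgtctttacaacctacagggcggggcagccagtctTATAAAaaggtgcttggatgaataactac
Rptn: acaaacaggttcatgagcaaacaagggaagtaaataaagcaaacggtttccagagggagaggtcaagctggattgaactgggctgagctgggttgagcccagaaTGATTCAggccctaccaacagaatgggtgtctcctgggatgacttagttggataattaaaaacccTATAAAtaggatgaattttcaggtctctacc
Krtdap: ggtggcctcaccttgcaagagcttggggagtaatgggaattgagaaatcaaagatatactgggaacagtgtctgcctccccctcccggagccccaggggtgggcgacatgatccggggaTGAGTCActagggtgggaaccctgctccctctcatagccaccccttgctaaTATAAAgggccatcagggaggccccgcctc

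The AP-1 motif is bound by Fos and Jun proteins, and the TATA box is a core promoter element. All 6 sequences hold a TATA box, and its first base lies 29 to 43 bases before the start. Sprr1a holds 2 AP-1 matches, 146 and 116 bases before its start, and Sprr1b holds 1 at 111. The match lies 193 bases before the start in Sprr2d, 198 in Sprr2h, 96 in Rptn and 81 in Krtdap. Thus Sprr1a and Sprr1b, of very different level, both carry these letters. Aligned end to end, the pair of Sprr2d and Sprr2h was identical at 67.6% of columns and that of Sprr1a and Sprr1b at 57.1%, beside 54.5% for Sprr1a and Rptn, which are not paralogs.

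In RefSeq, 32 of the 38 members matched a promoter window by symbol, with 36 windows, and no window was matched for Crct1, Spink5, Evpl, Ppl, Aloxe3 and Calml3. In the 250 bases before the start, 16 of the 36 windows (44.4%) held TGANTCA, against 6.75% of all 32851 windows. TATAAA stood in 15 of 36 (41.7%), against 12.4% of all. Sprr2 windows are alike in sequence and Dmkn has overlapping windows, so windows are not independent counts. By gene, 14 of the 32 members held TGANTCA and 15 held TATAAA. Other motifs searched were CACCC (KLF factors, 61.1% against 52.0%), AACNNGTT (Grhl factors, 5.56% against 3.64%), GGAAG (Ets factors, 61.1% against 64.1%) and TTGCNNAA (C/EBP factors, 27.8% against 9.56%). A match is a run of letters in the window, and binding was not measured. Ivl also held TGANTCA, 116 bases before its start, as did Lor and Flg2, which stayed under 0.4 FPKM in every library.

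Envelope genes of the granular layer stayed low. Flg (filaggrin), which bundles keratin filaments, was at most 0.0634 FPKM outside PPK ADT and stood at 2.24 and 1.79 there. Rptn (repetin), a filaggrin-like gene, stood at 0.68 and 0.602 FPKM in PP sham, 0.268 and 0.230 in PPK sham, 0.910 and 1.04 in PP ADT, and 4.40 and 4.13 in PPK ADT. Cnfn (cornifelin) was listed at 0 in all sham libraries, and stood at 2.43 and 1.36 FPKM in PP ADT and 8.33 and 9.02 in PPK ADT. Against PP ADT, Cnfn rose by 1.76 ± 0.17 (limma adjusted p = 0.000156). Flg and Rptn differed by 1.51 ± 0.10 and 1.41 ± 0.085, given with no test because both reached the filter only through PPK ADT. Lor, which encodes loricrin, the most abundant protein of the epidermal envelope, reached no more than 0.391 FPKM. Flg2 reached 0.00841 and Hrnr (hornerin) 0.115 FPKM at most, and Crct1 stood at 1.84 and 0.515 in PPK ADT. Of the 19 envelope proteins, 12 were tested, and 4 of these (Flg, Rptn, Sprr1b and Sprr2h) reached the filter only through PPK ADT. Of the other 8, 6 rose, 1 fell and 1 did not pass in PPK ADT against PP ADT, with a median of 0.92, where 29.6% of all such genes rose and 28.7% fell.

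**Figure D2:**
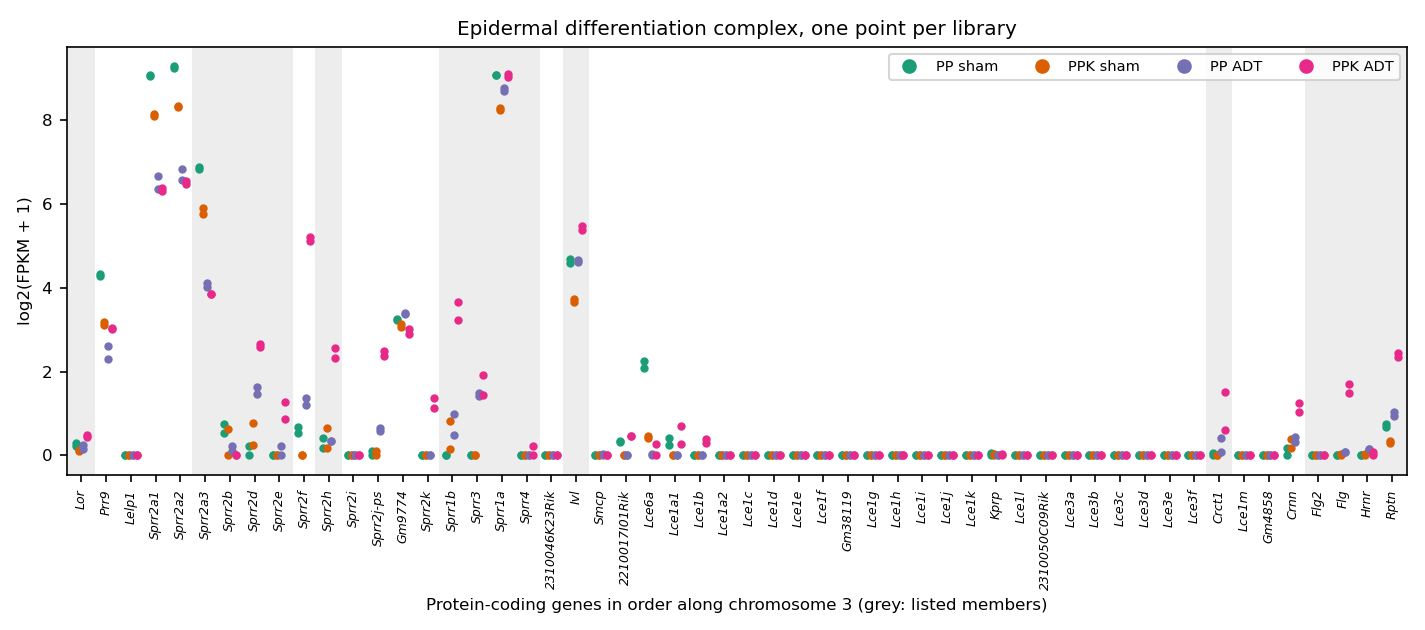
FPKM as log2(FPKM + 1) for 54 protein-coding genes in their order along chromosome 3, from Lor to Rptn, with 1 point per library and colours for groups. The Lce genes in the middle lie at or near 0 except Lce6a in PP sham, and the Sprr2a copies are highest in PP sham while Sprr2f, Sprr1b, Ivl and Rptn are highest in PPK ADT.

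The 16 members on chromosome 3 lie in the epidermal differentiation complex, an interval of 1319 kb (3:92080271 to 93399442, GRCm38) with 54 protein-coding genes in GENCODE M21. Of these, 34 were under 1 FPKM in every library. Among the 18 that reached 1 FPKM in at least 2 libraries, 11 had their highest mean in PPK ADT, 6 in PP sham and 1 in PP ADT. However, 7 of the 11 reached 1 FPKM only through PPK ADT and 1 of the 6 (Lce6a) only through PP sham, and so could be highest nowhere else. Of the 11 genes that reached it without PPK ADT, 4 were highest in PPK ADT, 6 in PP sham and 1 in PP ADT. These 6 still include Lce6a, and Sprr1a, whose PP sham and PPK ADT pairs overlapped. They also include the Sprr2a copies, which may share reads. The share of all genes highest in each group was not counted. Genes of the cluster thus did not all have their highest mean in the same group, as the plot of genes in chromosome order shows. Late cornified envelope (Lce) genes, a second family of envelope substrates in it, were listed at 0 in all libraries for 17 of 21 genes on the list, and 20 of 21 were under 1 FPKM throughout. The exception was Lce6a, at 3.76 and 3.22 FPKM in PP sham, but no more than 0.382 elsewhere. Lce1a1, the next highest, reached 0.615 FPKM.

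The crosslinking enzymes went apart. Tgm1, the membrane-bound transglutaminase of the envelope, stood at 1.06 and 1.13 FPKM in PP sham, 1.19 and 1.42 in PPK sham, 3.64 and 3.83 in PP ADT, and 189 in both PPK ADT libraries. The PPK ADT mean was 50.6 times that of PP ADT, and no other group came near it. Tgm1 rose with ADT in PP (1.17 ± 0.066, limma adjusted p = 2.42e-05) and rose in PPK ADT against PP ADT (5.33 ± 0.066, limma adjusted p = 3.37e-08). In sham mice its genotype difference was 0.13 ± 0.066 (limma adjusted p = 0.189), and the difference of effects was 5.19 ± 0.094 (limma adjusted p = 2.01e-07). Tgm5, a related epidermal transglutaminase, stood at 2.82 and 2.92 FPKM in PP sham, 1.83 and 1.76 in PPK sham, 3.58 and 4.62 in PP ADT, and 1.63 and 1.34 in PPK ADT. It fell in PPK ADT against PP ADT (-1.03 ± 0.12, limma adjusted p = 0.00035). Tgm3, which acts in epidermis and hair, reached 0.0716 FPKM at most.

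Asprv1, a retroviral-like protease that processes profilaggrin, stood at 1.15 and 1.36 FPKM in PP sham, 1.79 and 1.59 in PPK sham, 2.80 and 2.97 in PP ADT, and 16.6 and 17.8 in PPK ADT. It rose in PPK ADT against PP ADT (2.23 ± 0.085, limma adjusted p = 2.06e-06). Casp14, the caspase of filaggrin breakdown, was at most 0.0711 FPKM outside PPK ADT and 1.36 in both PPK ADT libraries. Spink5, which encodes the inhibitor of the kallikreins that shed epidermal cells, had another pattern. It stood at 80.7 and 81.4 FPKM in PP sham, 107 and 104 in PPK sham, 0.574 and 0.503 in PP ADT, and 7.28 and 7.89 in PPK ADT. The sham libraries were highest in both genotypes, and the ADT pairs did not overlap them. Spink5 fell with ADT by 5.74 ± 0.051 in PP (limma adjusted p = 1.77e-08), and by 3.64 ± 0.051 in PPK (limma adjusted p = 2.48e-08). It was higher in PPK than in PP at both times, by 0.38 ± 0.051 in sham (limma adjusted p = 0.00228) and by 2.48 ± 0.051 after ADT (limma adjusted p = 1.60e-07).

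Seminal vesicle secretory genes, listed as markers of another tissue the sort could hold, moved like Spink5 and Sprr2a3 between sham and ADT. Their 7 genes summed to 1273 and 1277 FPKM in PP sham, 567 and 562 in PPK sham, 0.953 and 2.38 in PP ADT, and 6.32 and 6.67 in PPK ADT, and Svs1, Svs3a and Svs6 were listed at 0 in all PP sham and ADT libraries. Uroplakin genes and Krt20, markers of urothelium, summed to 116 and 113 FPKM in PP sham, 27.6 and 23.9 in PPK sham, 94.0 and 96.3 in PP ADT, and 62.5 and 68.1 in PPK ADT. The last 2 sums were mostly Krt20, which stood at 51.8 FPKM in PPK ADT and 0.583 in PP ADT, whereas Upk1a fell from 60.0 to 10.6, Upk1b from 28.1 to 1.20 and Upk3a from 6.13 to 0.361. The part of either tissue in the Spink5 and Sprr2a3 values was not tested.

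The lipid barrier genes were near 0 in all groups. Abca12, which loads lipid into lamellar granules, was listed at 0 outside PPK ADT and stood at 0.106 and 0.111 FPKM there. The epidermal lipoxygenases Alox12b and Aloxe3 reached at most 0.266 and 0.231 FPKM. None of the 3 was tested. Of other lipid genes of the barrier, from a longer list, 15 reached the filter without PPK ADT, of which 8 rose, 5 fell and 2 did not pass in PPK ADT against PP ADT, with a median of 0.27, where 29.6% of all such genes rose and 28.7% fell. A further 8 reached it only through PPK ADT and had to be higher there. Among these 8 are the lipases Lipk (mean of 43.8 FPKM in PPK ADT and 0.948 in PP ADT), Lipn (15.9 and 0.168) and Lipm (5.50 and 0.165).

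Secreted, surface and calcium-binding members held the largest levels in PPK ADT. Krtdap, a secreted peptide of differentiating keratinocytes, read 0 in either PP sham library, and stood at 0.168 and 0 FPKM in PPK sham, 2.37 and 1.69 in PP ADT, and 126 and 119 in PPK ADT. Lgals7 (galectin-7), a lectin of stratified epithelia, stood at 4.46 and 5.64 FPKM in PP sham, 8.74 and 9.84 in PPK sham, 18.6 and 16.3 in PP ADT, and 549 and 548 in PPK ADT. Calml3, an epithelial calmodulin-like protein, stood at 1.17 and 0.703 FPKM in PP sham, 0.0401 and 0.316 in PPK sham, 8.51 and 9.28 in PP ADT, and 215 and 227 in PPK ADT. All 3 stood higher in PP ADT than in any sham library and higher again in PPK ADT. Against PP ADT they rose by 5.36 ± 0.13 (Krtdap, limma adjusted p = 2.86e-07), 4.90 ± 0.11 (Lgals7, limma adjusted p = 1.99e-07) and 4.49 ± 0.15 (Calml3, limma adjusted p = 1.10e-06).

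**Figure D3:**
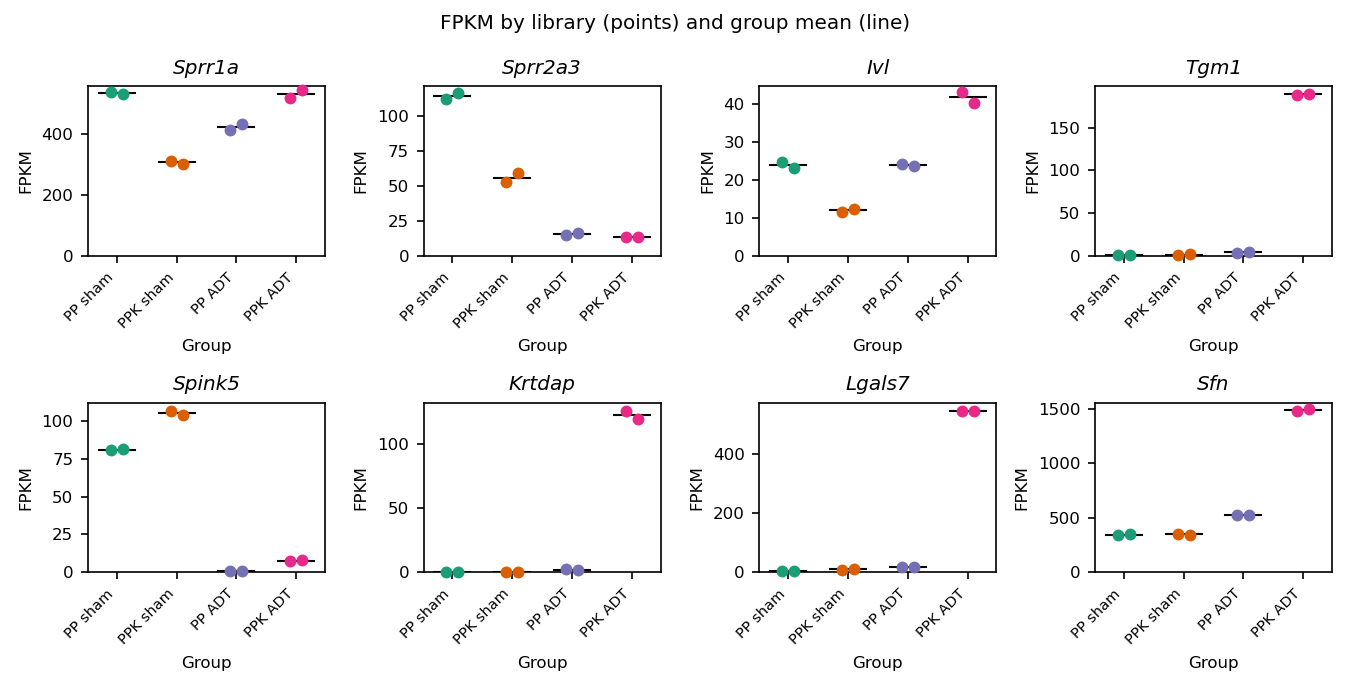
FPKM of 8 members by group, with 1 point per library and a line at the group mean, on linear axes from 0. Tgm1, Krtdap and Lgals7 are far higher in PPK ADT than in the other groups, Sprr1a is as high in PP sham as in PPK ADT, and Sprr2a3 and Spink5 are high in sham libraries.

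Lypd3, a surface protein of suprabasal keratinocytes, stood at 14.2 and 12.5 FPKM in PP sham, 13.4 and 12.0 in PPK sham, 25.8 and 25.0 in PP ADT, and 282 in both PPK ADT libraries. Sfn, the epithelial 14-3-3 sigma protein, stood at 340.4 and 347 FPKM in PP sham, 349 and 343 in PPK sham, 523 and 521 in PP ADT, and 1479.8 and 1499 in PPK ADT. Neither differed between sham genotypes beyond the spread (-0.06 ± 0.072 for Lypd3 with limma adjusted p = 0.565, and 0.01 ± 0.021 for Sfn with limma adjusted p = 0.798). In PPK ADT against PP ADT, Lypd3 rose by 3.42 ± 0.072 (limma adjusted p = 1.67e-07) and Sfn by 1.51 ± 0.021 (limma adjusted p = 4.68e-08). Calm4, an epidermal calmodulin relative, was at most 0.0436 FPKM outside PPK ADT, and stood at 1.17 and 2.07 there. Ly6g6c, between 0.706 and 3.27 FPKM, passed in no comparison, and Cdsn, the corneodesmosin of shedding cells, stayed between 0.228 and 0.591.

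Dmkn and Sbsn, which encode secreted proteins of the upper epidermis, lie beside Krtdap on chromosome 7. Dmkn was highest in PPK ADT and next in PP ADT, as Krtdap was, whereas Sbsn differed less between groups. Dmkn stood at 1.92 and 1.48 FPKM in PP sham, 2.37 and 2.08 in PPK sham, 4.78 and 5.93 in PP ADT, and 85.1 and 89.0 in PPK ADT. Sbsn stood at 13.7 and 14.1 FPKM in PP sham, 13.7 and 14.9 in PPK sham, 21.3 and 25.2 in PP ADT, and 25.1 and 29.6 in PPK ADT, so its ADT groups overlapped. Against PP ADT, Dmkn rose by 3.80 ± 0.12 (limma adjusted p = 7.85e-07), whereas Sbsn differed by 0.23 ± 0.10 (limma adjusted p = 0.103). The Sbsn difference passed with the replicate block (0.23, adjusted p = 0.0262), without PP ADT replicate B (0.34, adjusted p = 0.0434) and without PPK ADT replicate A (0.34, adjusted p = 0.0472). Of the 10 members of this class, 9 were tested, with Calm4 reaching the filter only through PPK ADT. Of the other 8, 6 rose and 2 did not pass, with a median of 3.61, where 29.6% of all such genes rose.

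In sham mice, PPK against PP gave 3 members higher, 7 lower and 16 not passing of the 26 tested, where 13.7% of all genes tested rose and 14.9% fell. The median was 0.02, against -0.02 over all genes tested. The lower members were the envelope genes Ivl, Sprr1a, Sprr2a3, Evpl and Rptn, with Tgm5 and Calml3. The higher members were Lgals7 (0.77 ± 0.11, limma adjusted p = 0.00261), Spink5 and Ppl. Calls of Evpl, Ppl, Rptn, Tgm5 and Calml3 rested on small or low-level differences, and each ended without PP sham replicate A, with adjusted p from 0.0606 to 0.157. Evpl, Ppl and Tgm5 also lost theirs without any other single sham library, Rptn without PP sham replicate B or PPK sham replicate B, and Calml3 without PPK sham replicate A. The Evpl call further ended without any single ADT library and with quantile normalization, and that of Ppl without either PP ADT library. Both ended with the replicate block, only the groups compared or no mean-variance trend. Without a filter Evpl, Tgm5 and Rptn lost theirs, and Calml3 did with only the groups compared.

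ADT with age in PP mice gave 15 members higher, 4 lower and 7 not passing, where 19.1% of all genes tested rose and 25.1% fell. The median was 0.65, against -0.07 over all genes tested. Calml3 (2.36 ± 0.15), Lgals7 (1.61 ± 0.11), Krtdap (1.59 ± 0.13) and Cnfn (1.51 ± 0.17) rose, and Spink5, Sprr2a3, Evpl and Sprr1a fell. Ivl did not change beyond the spread (0.01 ± 0.058, limma adjusted p = 0.950). The calls of Rptn (0.27 ± 0.085) and Tgm5 (0.39 ± 0.12) ended without PP ADT replicate B (adjusted p = 0.167 and 0.152) and without any single sham library, among others. Against a change of at least 2-fold (limma treat), 3 of the 15 and 2 of the 4 passed, where 2.09% of all genes tested passed as higher and 2.09% as lower.

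ADT with age in PPK mice gave 22 members higher, 2 lower and 2 not passing, where 31.9% of all genes tested rose and 30.7% fell. The median was 2.05, against 0.00 over all genes tested. Of the 20 that reached the filter without PPK ADT, 16 rose and 2 fell, where 29.0% of all such genes rose and 32.6% fell. The increases were largest for Calml3 (7.57 ± 0.15), Krtdap (6.84 ± 0.13), Tgm1 (6.37 ± 0.066) and Lgals7 (5.74 ± 0.11). Spink5 and Sprr2a3 fell, as they did in PP mice.

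**Figure D4:**
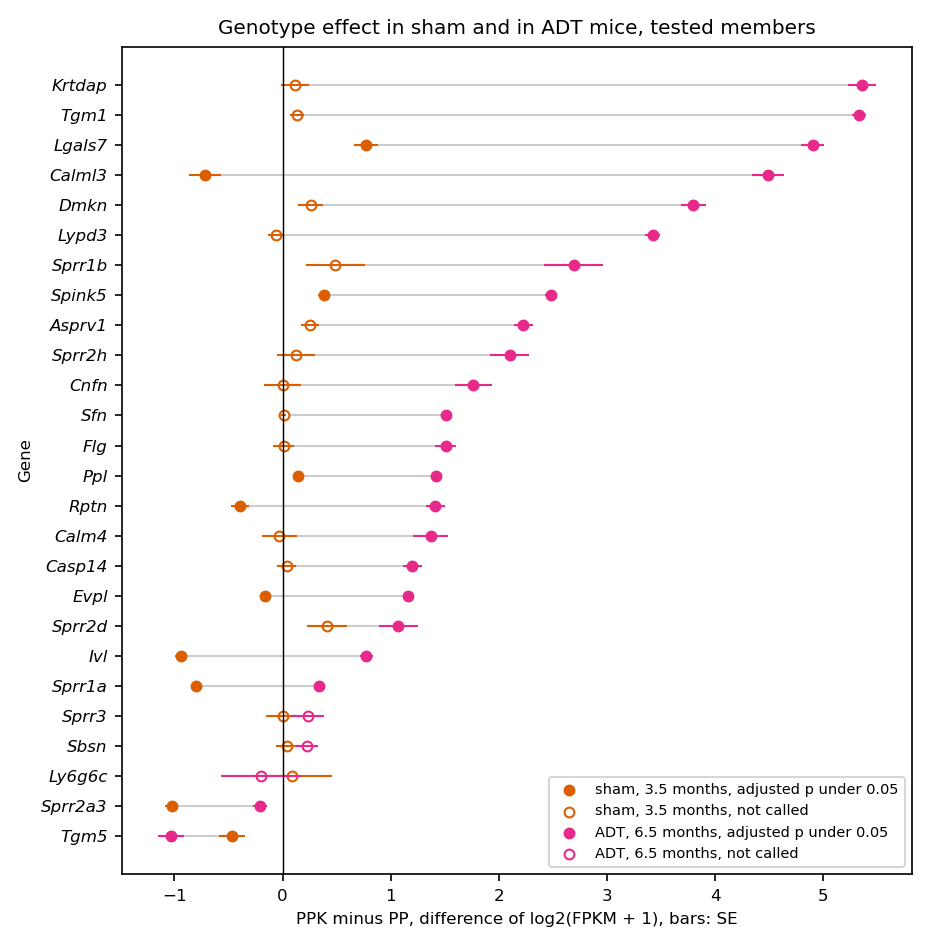
Difference of PPK minus PP in log2(FPKM + 1) with SE for the 26 tested members, in sham mice (orange) and ADT mice (pink), with filled points at an adjusted p under 0.05. Flg, Rptn, Sprr1b, Sprr2h, Casp14 and Calm4 reached the filter only through PPK ADT, so their filled ADT points do not count as tests. The sham points lie between -1.03 and 0.77, and the ADT points reach 5.36 for Krtdap.

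The difference of genotype effects, ADT minus sham, was higher than 0 for 21 members, lower for 1 and did not pass for 4, where 30.0% of all genes tested were called higher and 22.8% lower. The median was 1.61, against 0.09 over all genes tested. Of the 20 that reached the filter without PPK ADT, 15 were higher and 1 lower, where 27.6% of all such genes were higher and 24.2% lower. It was largest for Krtdap (5.25 ± 0.18), Calml3 (5.20 ± 0.21), Tgm1 (5.19 ± 0.094) and Lgals7 (4.13 ± 0.15). For Sprr2a3 it was positive (0.82 ± 0.087, limma adjusted p = 0.000341), as the deficit in PPK was smaller in ADT than in sham mice. Tgm5 was the lower call (-0.56 ± 0.17, limma adjusted p = 0.0287), and it ended without PP ADT replicate B (adjusted p = 0.0642) and without every other left-out library except PP ADT replicate A and PPK ADT replicate A. The members not passing were Sprr2d (0.66 ± 0.26, limma adjusted p = 0.0714), Sprr3, Sbsn and Ly6g6c, and Sprr2d passed without PPK sham replicate A (0.92, adjusted p = 0.0111). The plot of genotype effects shows the sham and ADT values of each member side by side.

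Other genes of the pathway were counted from lists written beside the members. Of other envelope and Sprr genes, 16 listed and 13 tested, 4 reached the filter only through PPK ADT (Sprr2g, Sprr2k, Crnn and Cysrt1). Of the other 9, 5 rose, 2 fell and 2 did not pass in PPK ADT against PP ADT, with a median of 0.43, where 29.6% of all genes that reached the filter without PPK ADT rose and 28.7% fell. Those that rose included Sprr2f (34.7 against 1.45 FPKM, 3.86 ± 0.094), the envelope precursor Scel (15.5 against 6.18, 1.20 ± 0.078), the annexin Anxa1 (2201 against 1636, 0.43 ± 0.018) and the protease inhibitor Cstb (237 against 141, 0.74 ± 0.037). Of other transglutaminases, proteases and peptidylarginine deiminases, 21 listed and 13 tested, 5 reached the filter only through PPK ADT (Klk8, Klk10, Klk11, Klk13 and Padi3). Of the other 8, 1 rose, 5 fell and 2 did not pass, with a median of -0.50. Padi2 (1.22 against 28.0 FPKM, -3.71 ± 0.094), the tissue transglutaminase Tgm2 (16.6 against 56.4, -1.70 ± 0.056) and the protease Prss8 (22.2 against 65.7, -1.52 ± 0.049) fell, and Blmh, a protease of filaggrin breakdown, rose (24.7 against 6.40, 1.79 ± 0.064).

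All 20 listed transcription factors of terminal differentiation were tested and reached the filter without PPK ADT. In PPK ADT against PP ADT, 14 rose, 4 fell and 2 did not pass, with a median of 0.64. Of all genes that reached the filter without PPK ADT, 29.6% rose and 28.7% fell. Grhl3 stood at 4.09 and 3.92 FPKM in PP sham, 3.60 and 2.80 in PPK sham, 6.603 and 5.67 in PP ADT, and 98.3 and 98.6 in PPK ADT (3.80 ± 0.10). Cebpa rose too (71.3 against 11.4 FPKM, 2.55 ± 0.044). Klf4, a barrier regulator, stood at 71.1 and 75.4 FPKM in PP sham, 36.2 and 37.1 in PPK sham, 37.1 and 34.8 in PP ADT, and 124 and 120 in PPK ADT. Its genotype difference was -0.98 ± 0.046 in sham (limma adjusted p = 2.98e-05) and reached 1.74 ± 0.046 after ADT (limma adjusted p = 4.26e-07), opposite signs as for Ivl and Sprr1a.

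Markers of cell types moved beside these genes. Itga6, which encodes CD49F, stood at 33.9 and 34.4 FPKM in PPK ADT and 34.2 and 32.6 in PP ADT. The 7 luminal markers summed to 4779 to 5802 FPKM in the 6 other libraries and to 1800 and 1827 in PPK ADT. The 5 basal markers summed to 842 to 1340 FPKM in the 6 libraries and to 5754 and 5823 in PPK ADT. Krt5 and Krt14, the basal keratin pair, stood at 3243 and 1523 FPKM there, and 3 of the 4 basal markers that reached the filter without PPK ADT rose against PP ADT. The 7 suprabasal squamous keratins summed to 521 to 699 FPKM in the 6 libraries and to 4047 and 4103 in PPK ADT. All 7 of 7 rose, with Krt10 at 1225 against 7.76 FPKM. Beside the basal and suprabasal counts, 29.6% of all genes that reached the filter without PPK ADT rose and 28.7% fell. Whether luminal cells carried this RNA or other cells had entered the sort was not tested.

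Markers of skin appendages were low. Of 9 hair follicle markers, 6 were listed at 0 in all libraries and the sum was at most 2.06 FPKM, most of it Tchh. Of 5 melanocyte markers, Tyr and Tyrp1 were at 0 throughout, and 6 markers of sebaceous and preputial glands summed to 1.64 to 3.47 FPKM, with Awat1 at 0. Fibroblast markers (6) summed to 5.55 and 5.85 FPKM in PP sham, 17.7 and 17.0 in PPK sham, 4.61 and 4.54 in PP ADT, and 28.8 and 30.0 in PPK ADT, so they were highest where the cornification genes were. Leukocyte markers (8) summed to 11.3 to 31.2 FPKM, nearly all from Cd68 and S100a9, with Ptprc at most 0.188, and endothelial markers (3) to at most 3.64. The part of fibroblasts in the result was not tested.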

How the data were processed

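Per the labels, Trizol RNA went into strand-specific libraries with a TruSeq kit. The authors deposited FPKM values, 1 table per library. FastQC 0.11.2 and mm10 stand in the submitters' processing notes, while for aligner and quantifier the answer is not given in the sources used here. Tables were merged over 55335 Ensembl identifiers, of which 55154 had a symbol in GENCODE M21 (GRCm38). The files hold no counts, so there are no counting intervals.

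Genes with at least 1 FPKM in at least 2 libraries (14000) were fitted as log2(FPKM + 1) with limma 3.58.1 in R 4.3.3, with 4 group means and a mean-variance trend, two-sided, adjusted by Benjamini-Hochberg over all of them, and called at an adjusted p under 0.05. The fit was tested on simulated data. Promoter windows came from RefSeq (GRCm38.p6). Other steps ran in Python 3.11.15 with pandas 2.3.3 and, for plots, matplotlib 3.10.9.

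The members, lists and tests were chosen with earlier results of these data known. Values per library are given for members with a group mean of at least 10 FPKM, and for lower ones where they help. From other lists up to 4 genes with the smallest adjusted p in PPK ADT against PP ADT are named, or the 2 highest where none passed. Some genes under this rule are not reported here. Sprr2a1 and Sprr2a2 and the genes whose promoters are shown were named after their values were seen. Letters A and B were not used as pairs, since deviations of same-letter libraries correlated at -0.00791 to 0.0566. The 17 alternatives were another pseudocount, other filters, scalings and fits, and each library left out.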

Additional observations from a re-analysis of the deposited data

Results flagged for a closer look

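The effect of genotype differed between ADT and sham mice for 22 of the 26 tested members, by limma's test of the difference of effects. Of these, 6 (Flg, Rptn, Sprr1b, Sprr2h, Casp14 and Calm4) reached the filter only through the PPK ADT libraries and had to be higher there, and without them the count was 16 of 20, 15 higher and 1 lower. Each value below is the log2 difference of PPK minus PP in ADT mice, minus that in sham mice. Among envelope proteins it was Sprr1b 2.21, Sprr2h 1.98, Rptn 1.81, Cnfn 1.76, Ivl 1.71, Flg 1.50, Evpl 1.32, Ppl 1.27, Sprr1a 1.14 and Sprr2a3 0.82. Among enzymes and the inhibitor it was Tgm1 5.19, Spink5 2.10, Asprv1 1.97, Casp14 1.16 and Tgm5 -0.56. Among secreted, surface and calcium-binding members it was Krtdap 5.25, Calml3 5.20, Lgals7 4.13, Dmkn 3.54, Lypd3 3.49, Sfn 1.50 and Calm4 1.40. In 7 of them (Ivl, Rptn, Sprr1a, Evpl, Calml3, Sprr2a3 and Tgm5) the sham effect was a fall, and in the first 5 of these the ADT effect was above 0. Of all genes tested, 30.0% were called higher and 22.8% lower in this test. No group was large enough for a test of single outlying libraries.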

How the results depend on the processing

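Counts are of the 26 tested members unless fewer were tested, and without a filter they are of all 38 members. Members called lower in PPK ADT against PP ADT numbered 2, 1 with at least 5 FPKM in at least 2 libraries, and 0 against a 2-fold change (limma treat). In the same order, 3788 of all 14000 genes tested, 2796 of 8278 and 684 of 14000 were called lower. In sham mice, 3 were higher and 7 lower. Against a 2-fold change both counts were 0, and without a filter the lower count was 4. Of all 14000 genes tested, 1920 were called higher and 2080 lower in the main fit, and 85 and 83 against a 2-fold change. Without a filter, 1902 of 31172 genes were called lower. In PP ADT against PP sham, 15 were higher and 4 lower, and against a 2-fold change 3 and 2. Of all 14000 genes tested, 2667 were called higher and 3518 lower in the main fit, and 292 each against a 2-fold change. For the difference of effects the lower count was 1. It was 0 without a filter, with at least 5 FPKM and against a 2-fold change. In the same order, 3234 of 31172 genes, 2413 of 8278 and 740 of 14000 were called lower, against 3197 of 14000 in the main fit. With a library left out, counts of these comparisons varied as well. Against a 2-fold change, the higher counts were 15 in ADT mice, 17 for ADT with age in PPK and 14 for the difference of effects. Of all 14000 genes tested, 752, 832 and 713 were called higher there. The member counts are out of all 26, of which 6 reached the filter only through PPK ADT.

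With a replicate block, the higher counts were 22 in ADT mice, 2 in sham mice, 13 and 22 for ADT with age in PP and PPK, and 22 for the difference. In the same order, 4471, 1818, 2582, 4400 and 4052 of all 14000 genes tested were called higher. Under it the sham calls of Evpl and Ppl and the calls of Rptn and Tgm5 in PP ADT against PP sham were lost, and Sbsn in ADT mice and Sprr2d in the difference were gained. The letters do not pair the libraries. Uncalled values that changed sign were the Sprr2d difference with a pseudocount of 0.1 (-0.21), and with a library left out Sprr3 in ADT mice (-0.00065 to 0.46) and in the difference (-0.00065 to 0.46), and Ly6g6c in ADT mice (-0.65 to 0.25) and in the difference (-0.74 to 0.16). No called value changed sign under the 17 alternatives, but many could not change one. Other filters, fits of the spread, the replicate block and left-out libraries of groups not compared leave the difference itself unchanged. Calls lost numbered 45 against a 2-fold change (limma treat), which asks another question. They numbered 7 without a filter, 5 with only the groups compared and 4 with the replicate block. With a pseudocount of 0.1 or no mean-variance trend 2 each were lost, and others with a library left out. The Sprr1b difference was among them with a pseudocount of 0.1 (1.64, adjusted p = 0.205). The cause was not tested.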
